A study of Rattus norvegicus with 20 samples.

Results

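The 10 genes described here encode the colony-stimulating factors, the cytokine Il34, their receptors, and a pair of C/EBP transcription factors of myeloid cells. They were chosen by name, with earlier results of these data known. They are the ligands Csf1, Csf2, Csf3 and Il34, the receptors Csf1r, Csf2ra, Csf2rb and Csf3r, and the transcription factors Cebpb and Cebpe. All 10 were in the deposited table of 19060 genes, and 8 of them passed the filter on low counts, as 14794 genes did in all. Csf3 and Cebpe did not pass and are described by their counts. The data are RNA sequencing libraries of whole lung from 20 rats, which fall into 4 groups of 5 animals. The CLP+VNS animals had caecal ligation and puncture (CLP) together with cervical stimulation of the vagus nerve on the right side (VNS). The CLP animals had the same operation without stimulation. CLP lets gut bacteria into the abdomen and serves here as the model of acute respiratory distress syndrome. The Sham+VNS animals had abdominal surgery without injury to the caecum and were stimulated, and the Sham animals had that surgery alone. Strain, age, sex and the time from operation to tissue collection were not given for the animals in the labels used here.

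Colony-stimulating factors are secreted proteins that make myeloid precursors survive, divide and mature. Csf1 and Il34 bind the same receptor, the tyrosine kinase Csf1r, which maintains monocytes and macrophages. Csf2 (GM-CSF), made in lung mainly by alveolar type 2 cells, binds a receptor of the alpha chain Csf2ra and the shared beta chain Csf2rb, and alveolar macrophages depend on it to clear surfactant. Csf3 (G-CSF) acts through Csf3r on neutrophils and their precursors, and Cebpb and Cebpe switch on genes of emergency granulopoiesis and of late neutrophil maturation.

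Total counts per library ran from 13729646 to 14453181, so the groups were sequenced to nearly the same depth. Levels within a gene are given in CPM, which are counts over the TMM-scaled library total, and levels between genes in TPM, which is also scaled for transcript length. The tissue label was borne out by alveolar type 2 markers such as Sftpc, whose summed level was at least 18370 CPM in every library. The 8 neutrophil markers (S100a8, S100a9, Fpr1, Fpr2, Cxcr2, Mmp8, Mmp9 and Il1r2) summed to 1550 to 4257 CPM in CLP+VNS, 2736 to 4448 CPM in CLP, 273 to 604 CPM in Sham+VNS and 292 to 769.7 CPM in Sham libraries. All 8 were higher in CLP than in Sham by the test used below, which found 19.8% of all tested genes higher. None of the 8 was at 0 in any group. The 10 monocyte and macrophage markers summed to 926 to 1312 CPM in CLP+VNS, 1131 to 1377 CPM in CLP, 678 to 833 CPM in Sham+VNS and 644.5 to 847 CPM in Sham, and 7 of the 10 were higher in CLP than in Sham. Sham replicate 1 stood apart by its adipose markers, which summed to 712 CPM there. The highest Sham+VNS library reached 212 CPM of them, beside a median of 10.8 CPM in that group. In whole lung, more cells of a type and more RNA per cell cannot be told apart, which holds for every value below.

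The transcription factor Cebpb was the most abundant of the 10 genes in each group, at 202 ± 23.6 TPM in CLP+VNS, 227 ± 16.6 in CLP, 112 ± 11.1 in Sham+VNS and 127 ± 14.9 in Sham libraries (mean ± SD, n = 5). Behind it the order of the receptors differed between the operations. In CLP libraries Csf3r followed at 140.3 ± 31.1 TPM, then Csf1r at 72.9 ± 9.89, Csf2ra at 71.9 ± 4.92 and Csf2rb at 58.8 ± 12.6. In Sham libraries Csf1r followed at 89.6 ± 14.9 TPM, then Csf2ra at 41.9 ± 3.44, Csf3r at 36.4 ± 10.0 and Csf2rb at 16.2 ± 2.41. In CLP libraries the ligand messages lay below all of these receptors, whereas in Sham libraries Csf1 and Il34 lay above Csf2rb. Csf1 stood at 27.5 ± 1.87 TPM in CLP and 30.8 ± 5.43 in Sham, and Il34 at 15.7 ± 3.15 in CLP and 33.1 ± 5.92 in Sham. Csf2 was given 14.3 ± 3.12 TPM in CLP and 11.5 ± 2.81 in Sham, but from 9 to 28 counts per library. The deposited scaling gave Csf2 10.3 TPM per CPM, against 0.398 for Csf1, so its place in the order rests on the length that was assigned to it. Cebpe and Csf3 lay lowest, at 1.44 ± 0.552 and 1.20 ± 1.01 TPM in CLP and 0.954 ± 0.525 and 0.0200 ± 0.0447 TPM in Sham.

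**Figure D1:**
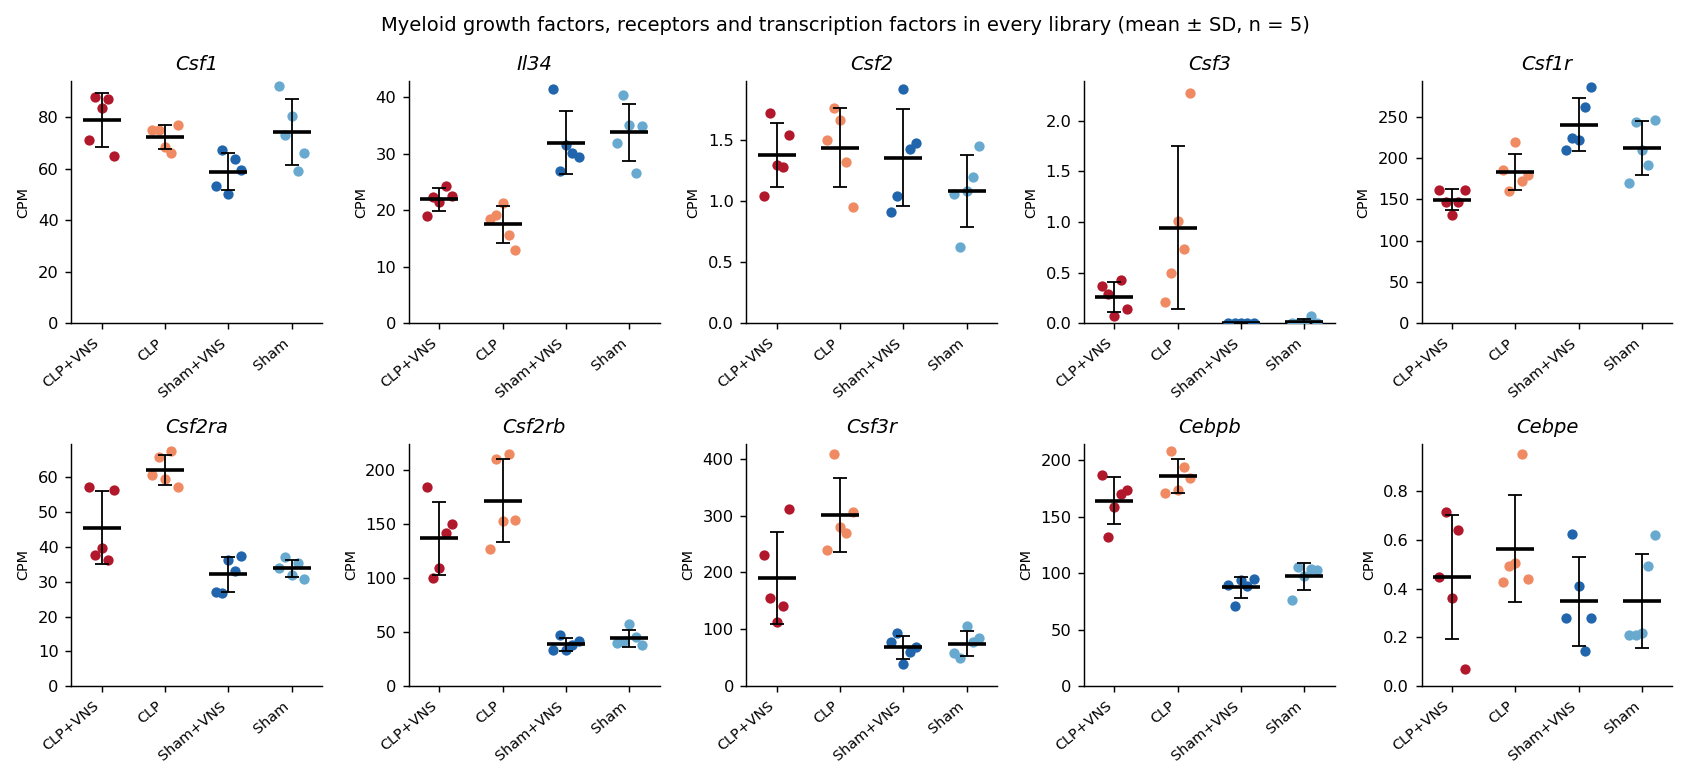
Level of each of the 10 genes in CPM (vertical axes, from 0) in the 20 libraries, with a point per library and the mean ± SD of each group. Csf2rb, Csf3r and Cebpb lie higher in all 10 libraries of the CLP operation than in all 10 of the sham operation, Il34 lies lower, and Csf3 is near 0 in the sham-operated animals.

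The operation was compared with edgeR's quasi-likelihood test in a fit of all 20 libraries, with p-values adjusted by the Benjamini-Hochberg method over all 14794 genes, with 0.05 as the threshold for a call. In CLP against Sham, 5 of the 8 tested genes were called, where 40.3% of all tested genes were. Csf3r, Csf2rb, Cebpb and Csf2ra rose, against 19.8% of all genes that rose, and Il34 fell, against 20.5% that fell. In each of these 5 the CLP and the Sham libraries did not overlap, as was so for 26.1% of all tested genes. In CLP+VNS against Sham+VNS, 7 of the 8 were called, where 27.3% of all genes were. Csf2rb, Csf3r, Cebpb, Csf2ra and Csf1 rose, against 13.9% of all genes that rose, and Csf1r and Il34 fell, against 13.4% that fell. The groups did not overlap in 5 of the 8 genes there, and in 18.9% of all tested genes. The median log2 fold change of the 8 genes was 0.64 in CLP against Sham and 0.46 in CLP+VNS against Sham+VNS, beside -0.013 and -0.0054 over all genes. These comparisons share no library, but they share the estimate of the spread.

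**Figure D2:**
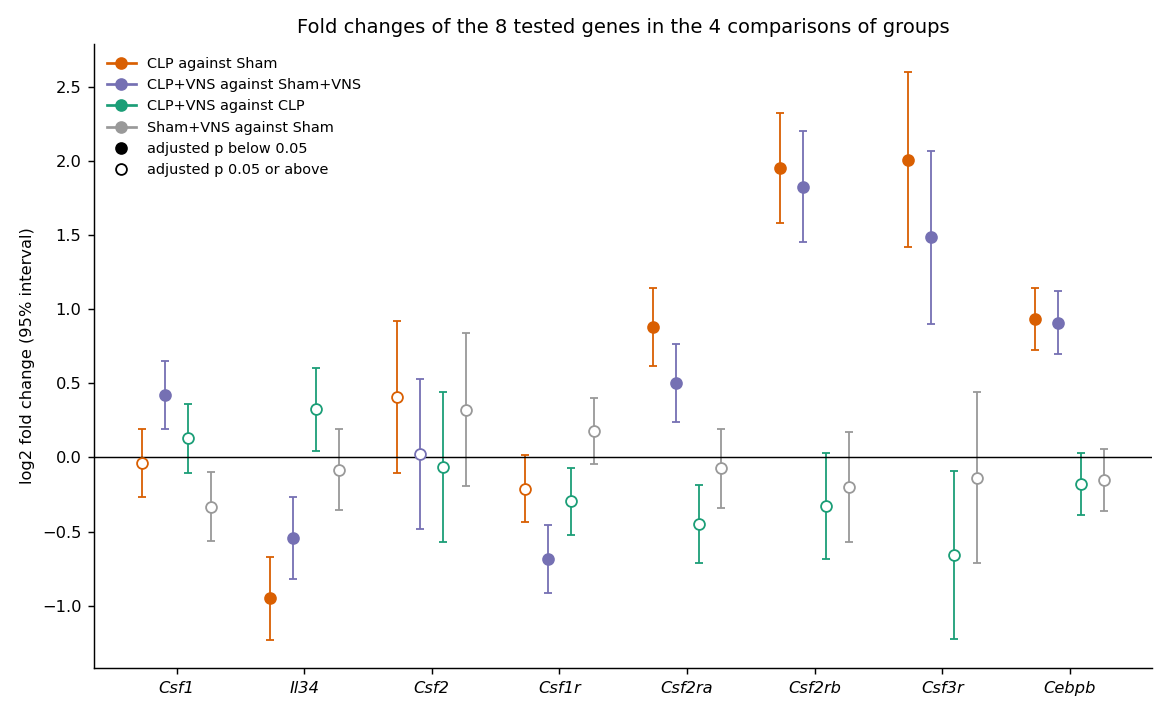
Log2 fold change (vertical axis) of the 8 tested genes in 4 comparisons, with 95% intervals, filled points where the adjusted p was below 0.05 and open points elsewhere. Both comparisons of the operation reach about the same height for Csf2rb and Cebpb, and the points for the comparisons of stimulation are all open.

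Among the ligands, Il34 fell after the operation. Its level was 18.9, 22.3, 21.4, 24.3 and 22.6 CPM in the CLP+VNS libraries and 18.4, 19.2, 21.2, 15.7 and 12.9 CPM in the CLP libraries. It was 41.4, 27.0, 31.5, 30.1 and 29.4 CPM in the Sham+VNS libraries and 31.9, 40.4, 35.1, 26.7 and 34.8 CPM in the Sham libraries. Every library of the CLP operation lay below every library of the sham operation, and the low end was CLP replicate 6. The log2 fold change was -0.95 ± 0.13 (SE) in CLP against Sham, with an adjusted p of 1.80e-05 from edgeR, and -0.54 ± 0.13 in CLP+VNS against Sham+VNS (adjusted p = 0.0045). Of the markers of cells that build the lung, 3 of 5 for endothelium and 3 of 4 for alveolar type 1 cells also fell in CLP against Sham. Among all tested genes 20.5% fell. The median log2 fold changes of these 2 marker sets were -0.36 and -0.47. Of 5 alveolar type 2 markers, by contrast, 1 rose and none fell, with a median of 0.19, where 19.8% of all tested genes rose. Of 5 fibroblast markers 3 fell and 1, Pdgfra, rose, and their summed level had a median of 1023 CPM in CLP and 1023 CPM in Sham. The part of these cells in the fall of Il34 was not tested.

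Csf1, the other ligand of Csf1r, did not follow Il34. Its level was 71.2, 87.6, 83.6, 86.9 and 64.7 CPM in the CLP+VNS libraries, 74.9, 74.8, 68.5, 65.8 and 76.7 in CLP, 53.4, 67.2, 50.2, 63.8 and 59.6 in Sham+VNS, and 91.8, 73.1, 80.4, 59.0 and 66.1 in Sham. The groups overlapped in each comparison, and the highest library of all was Sham replicate 1. Csf1 was not called in CLP against Sham (log2 fold change -0.04 ± 0.11, 95% interval -0.27 to 0.19, adjusted p = 0.811, and 0.048 without Sham replicate 1). In CLP+VNS against Sham+VNS it rose by 0.42 ± 0.11 (adjusted p = 0.0074), with libraries of both groups between 64.7 and 67.2 CPM.

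Il34 thus made up a smaller part of the summed Csf1 and Il34 message after the operation. Its share of their TPM was 39.4 ± 3.00% in CLP+VNS, 36.2 ± 4.70% in CLP, 55.9 ± 6.35% in Sham+VNS and 51.8 ± 4.91% in Sham libraries (mean ± SD, n = 5). The highest library of the CLP operation, at 44.6%, lay just under the lowest of the sham operation, at 45.0%, so the groups did not overlap.

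**Figure D3:**
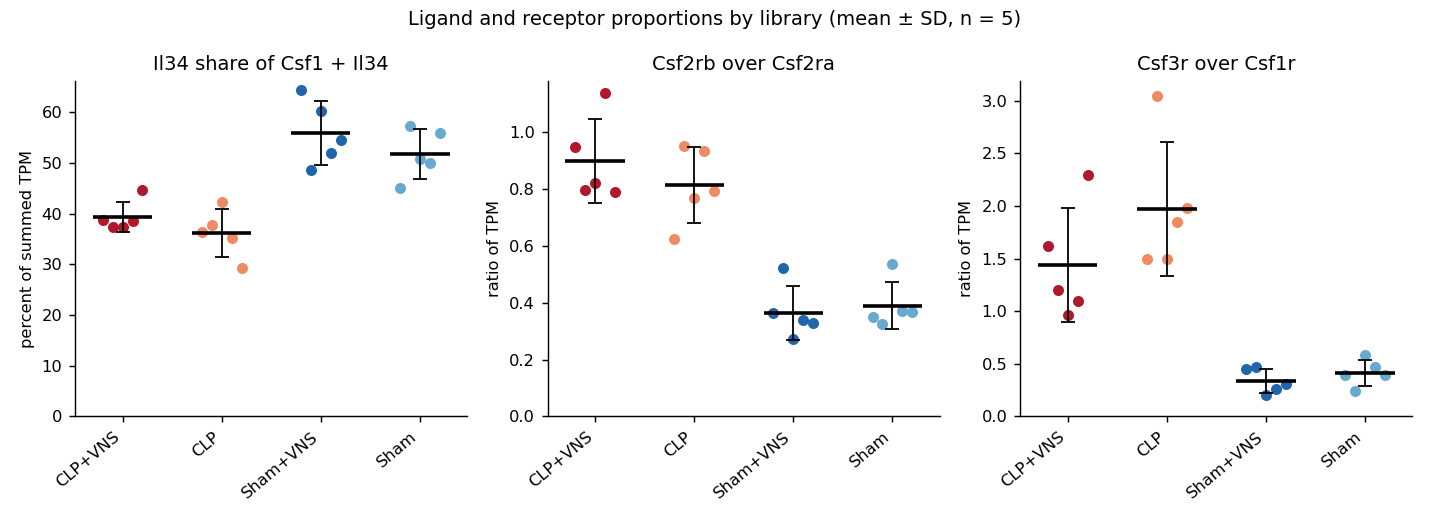
Share of Il34 in the summed TPM of Csf1 and Il34 (percent), and the ratios of TPM of Csf2rb to Csf2ra and of Csf3r to Csf1r, in each library, with the mean ± SD of 5 libraries per group. In all 3 panels the libraries of the CLP operation stand apart from those of the sham operation.

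Csf2, the GM-CSF message, was not called in any comparison. Its level was 1.04 to 1.72 CPM in CLP+VNS (median 1.30), 0.955 to 1.76 in CLP (median 1.50), 0.914 to 1.92 in Sham+VNS (median 1.43) and 0.629 to 1.45 in Sham (median 1.09). The 4 groups overlapped throughout. The log2 fold change was 0.41 ± 0.25 in CLP against Sham (95% interval -0.11 to 0.92, adjusted p = 0.199) and 0.02 ± 0.24 in CLP+VNS against Sham+VNS (-0.48 to 0.53). At this depth an increase of up to 1.89-fold in CLP and 1.44-fold in CLP+VNS lay inside the intervals. Its promoter is printed as that of a ligand whose message did not pass the test, over the 250 bases before the start of the gene (RefSeq, GRCr8, chr10:38889674-38889923, minus strand, written 5′ to 3′ along the gene). Capitals mark a match to the NF-kappaB motif, which is GGGA and CC with any 4 bases between them, and a match to the PU.1 core GAGGAA, both on the other strand.

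Csf2: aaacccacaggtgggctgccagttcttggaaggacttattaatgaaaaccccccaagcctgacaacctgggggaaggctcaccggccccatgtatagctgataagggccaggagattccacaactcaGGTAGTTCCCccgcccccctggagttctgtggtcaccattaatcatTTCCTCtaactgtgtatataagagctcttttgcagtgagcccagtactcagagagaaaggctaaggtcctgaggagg

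Csf3, the G-CSF message, was seen almost only after the CLP operation, at low counts. The CLP+VNS libraries held 5, 4, 1, 6 and 2 counts and the CLP libraries 3, 7, 14, 10 and 31. The 5 Sham+VNS libraries held 0, which allows up to 3 counts or 0.042 CPM over the group, and of the Sham libraries replicate 4 held 1 count and the others 0. All 10 libraries of the CLP operation had at least 1 count, and CLP replicate 6 held the most, at 2.28 CPM. Mean levels were 0.946 ± 0.801 CPM in CLP and 0.0141 ± 0.0315 CPM in Sham, a difference of 0.932 CPM (exact two-sided permutation test, p = 0.00794, the smallest that 5 against 5 libraries can give). Without CLP replicate 6 the difference was 0.599 CPM. The ratio of the summed counts, each over the summed TMM-scaled library totals of its group, was 66.6. Its 95% counting interval was 11.5 to 2671, since the Sham group held 1 count. In CLP+VNS the mean was 0.260 ± 0.151 CPM, at least 6.16-fold higher than in Sham+VNS, as computed against the floor of 3 counts over that group (exact permutation test, p = 0.00794).

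Among the receptors, Csf3r rose in both comparisons of the operation. Its level was 231, 155, 112, 141 and 312 CPM in the CLP+VNS libraries and 239, 408, 280.4, 270.2 and 307 CPM in the CLP libraries. It was 78.4, 93.2, 39.1, 59.9 and 69.6 CPM in the Sham+VNS libraries and 58.4, 48.7, 105, 77.8 and 84.0 CPM in the Sham libraries. The groups of either operation did not overlap, but the CLP+VNS libraries spread widely, with replicate 11 highest and replicate 5 close to the top of Sham. The log2 fold change was 2.01 ± 0.28 in CLP against Sham (4.02-fold, 95% interval 2.67 to 6.05, adjusted p = 2.02e-05) and 1.48 ± 0.28 in CLP+VNS against Sham+VNS (2.80-fold, adjusted p = 0.000568).

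Csf3r is carried by neutrophils, whose markers were also higher after CLP. The CLP+VNS libraries with the highest marker sums, replicates 11 and 1 with 4257 and 2884 CPM, also had the highest Csf3r, and replicate 5, with the lowest sum of 1550 CPM, had the lowest. In CLP, replicate 3 had the highest marker sum, 4448 CPM, and the highest Csf3r, and in Sham replicate 3 had both, at 769.7 and 105 CPM. The order did not match throughout: CLP replicate 6 had the second highest Csf3r of its group with a marker sum of 3127 CPM, the second lowest, and in Sham+VNS replicate 5 had the highest sum and replicate 2 the highest Csf3r. The part of the neutrophil markers in the difference in Csf3r was not tested. The Csf3r promoter is printed as that of a receptor that rose in both comparisons of the operation, from 250 to 95 bases before the annotated start, where another transcript of the gene begins (RefSeq, GRCr8, chr5:143582970-143583125, plus strand). Capitals mark its match to the PU.1 core GAGGAA, the core of the sites of a transcription factor of myeloid cells.

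Csf3r: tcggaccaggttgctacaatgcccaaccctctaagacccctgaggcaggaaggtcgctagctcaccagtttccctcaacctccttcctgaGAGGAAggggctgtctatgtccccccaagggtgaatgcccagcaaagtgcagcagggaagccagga

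**Figure D4:**
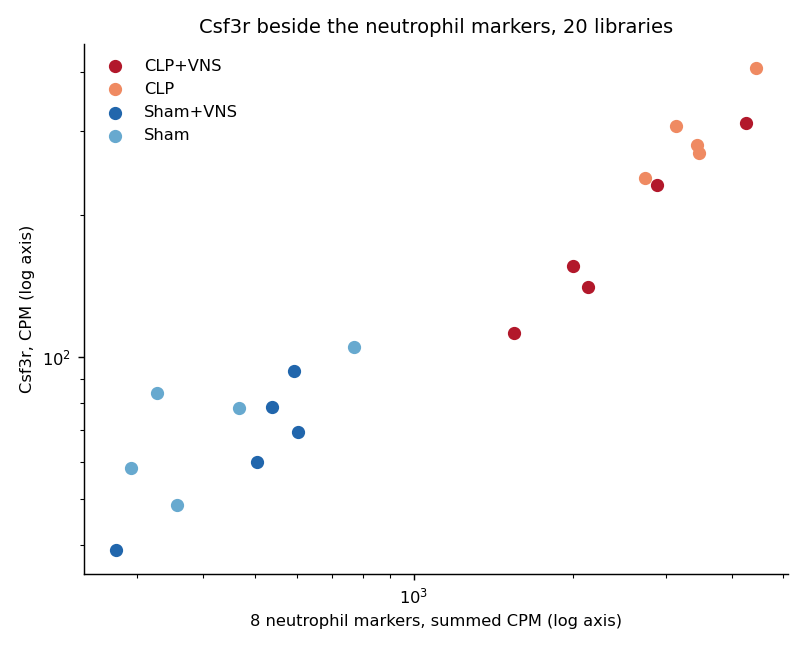
Csf3r in CPM (vertical, log axis) against the summed CPM of 8 neutrophil markers (horizontal, log axis), with a point per library and a colour per group. The libraries of the CLP operation lie at 1550 CPM of markers and above, those of the sham operation at 769.7 CPM and below, and the highest point of both measures is CLP replicate 3.

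Csf2rb, the beta chain through which GM-CSF signals, rose 3.87-fold in CLP against Sham. Its level was 184, 99.6, 109.7, 141 and 149.8 CPM in the CLP+VNS libraries and 127, 209.9, 153, 215 and 154 CPM in the CLP libraries. It was 33.2, 47.2, 33.1, 38.5 and 41.4 CPM in the Sham+VNS libraries and 40.2, 40.9, 57.7, 45.1 and 38.3 CPM in the Sham libraries. The lowest library of the CLP operation, CLP+VNS replicate 3, stood well above the highest of the sham operation, Sham replicate 3. The log2 fold change was 1.95 ± 0.18 in CLP against Sham (adjusted p = 2.24e-07) and 1.82 ± 0.18 in CLP+VNS against Sham+VNS (3.54-fold, adjusted p = 8.87e-07).

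Csf2ra, the alpha chain that gives the receptor its specificity for GM-CSF, rose less. Its level was 57.3, 37.7, 39.8, 36.3 and 56.4 CPM in the CLP+VNS libraries, 60.6, 65.8, 59.6, 67.6 and 57.3 in CLP, 27.1, 26.8, 36.2, 33.2 and 37.4 in Sham+VNS, and 33.9, 37.1, 32.0, 35.3 and 30.7 in Sham. The CLP libraries lay close together and above all Sham libraries, while the CLP+VNS libraries held replicates 1 and 11 at the level of CLP and 3 libraries near the top of Sham+VNS. The log2 fold change was 0.88 ± 0.13 in CLP against Sham (1.84-fold, adjusted p = 2.23e-05) and 0.50 ± 0.13 in CLP+VNS against Sham+VNS (1.42-fold, adjusted p = 0.00579), where the groups overlapped. The ratio of beta to alpha chain message in TPM was 0.898 ± 0.148 in CLP+VNS, 0.814 ± 0.134 in CLP, 0.365 ± 0.0950 in Sham+VNS and 0.390 ± 0.0831 in Sham (mean ± SD, n = 5). In TPM the beta chain message, far below the alpha chain in sham-operated lungs, thus came near its level after CLP. That order rests on the lengths assigned, since the deposited scaling gave Csf2rb 0.355 TPM per CPM and Csf2ra 1.19. In CPM, Csf2rb lay above Csf2ra in Sham too, at means of 44.4 and 33.8 CPM. Both chains are carried by neutrophils and macrophages. The neutrophil markers and the monocyte and macrophage markers had median log2 fold changes of 2.95 and 0.53 in CLP against Sham. The 6 tested markers of alveolar macrophages had a median of 0.091, and 1 of them was higher. The part of these cells in the difference was not tested.

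Csf1r, the receptor of macrophages, did not rise. Its level was 161, 147, 131, 147 and 162 CPM in the CLP+VNS libraries, 185, 161, 219, 172 and 179.7 in CLP, 209, 224, 222, 261 and 286 in Sham+VNS, and 170.2, 243, 209.9, 192 and 247 in Sham. All CLP+VNS libraries lay below all Sham+VNS libraries, whereas CLP and Sham overlapped. It fell by 0.69 ± 0.11 on the log2 scale in CLP+VNS against Sham+VNS, with an adjusted p of 0.000108. In CLP against Sham it was not called, with a log2 fold change of -0.21 ± 0.11 (95% interval -0.44 to 0.01, adjusted p = 0.126). That call was gained without Sham replicate 1 (-0.28, adjusted p = 0.0381), without CLP replicate 4 (-0.28, 0.0494) and with limma on log2(TPM + 0.5) (-0.29, 0.0487). The ratio of Csf3r to Csf1r in TPM was 1.44 ± 0.541 in CLP+VNS, 1.97 ± 0.636 in CLP, 0.339 ± 0.115 in Sham+VNS and 0.414 ± 0.125 in Sham, so the receptor of neutrophils outweighed that of macrophages in most libraries of the CLP operation and in none of the sham operation.

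Cebpb, which takes over the production of neutrophils under infection and also drives inflammatory genes in macrophages and epithelium, rose in both comparisons of the operation. Its level was 188, 132, 159, 170.0 and 174 CPM in the CLP+VNS libraries and 171, 208, 174, 194 and 184 CPM in the CLP libraries. It was 90.0, 71.1, 93.7, 88.3 and 94.8 CPM in the Sham+VNS libraries and 76.7, 106, 97.5, 104 and 103 CPM in the Sham libraries. No library of the CLP operation came down to the highest of the sham operation. The log2 fold change was 0.94 ± 0.10 in CLP against Sham (1.91-fold, adjusted p = 9.60e-07) and 0.91 ± 0.10 in CLP+VNS against Sham+VNS (1.88-fold, adjusted p = 2.60e-06).

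The Cebpb promoter is printed because its gene rose by about the same amount in both comparisons (RefSeq, GRCr8, chr3:176816755-176817004, plus strand, the 250 bases before the start). Capitals mark 3 matches to TGACG, the core of the cyclic AMP response element, and a match to the NF-kappaB motif.

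Cebpb: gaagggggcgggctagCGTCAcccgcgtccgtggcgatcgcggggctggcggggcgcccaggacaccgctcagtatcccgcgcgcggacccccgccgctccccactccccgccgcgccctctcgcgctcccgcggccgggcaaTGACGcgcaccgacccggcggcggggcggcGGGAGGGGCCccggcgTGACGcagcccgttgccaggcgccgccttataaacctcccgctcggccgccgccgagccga

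The motifs were searched on both strands in the 250 bases before the start of 33469 promoters. TGACG was present in 18.2% of them, the NF-kappaB motif in 16.4%, GAGGAA in 23.3%, the AP-1 motif TGANTCA in 6.34% and the C/EBP motif TTGCNNAA in 9.22%. Promoters were found for 6 of the 10 genes: Csf2, Csf1r, Csf2ra, Csf3r, Cebpb and Cebpe. The PU.1 core was present in 5 of these 6 and the C/EBP motif in none of these windows. Csf2ra held a match to the NF-kappaB motif, and Cebpe, the factor of late granulocyte maturation, held 2 PU.1 cores and an AP-1 match.

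Cebpe was near the limit of detection, with 1 to 13 counts per library. It stood at 0.447 ± 0.255 CPM in CLP+VNS, 0.564 ± 0.219 in CLP, 0.349 ± 0.182 in Sham+VNS and 0.351 ± 0.194 in Sham (mean ± SD, n = 5). The groups overlapped in each comparison. The difference of CLP and Sham was 0.214 CPM (exact two-sided permutation test, p = 0.103). The ratio of summed counts over summed library totals was 1.60 with a 95% counting interval of 0.943 to 2.76. That interval covers counting error only and leaves out the spread between animals. Without Sham replicate 5 the difference was 0.282 CPM (exact permutation test, p = 0.0476).

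Stimulation was compared in the operated and in the sham animals separately. In CLP+VNS against CLP, none of the 8 tested genes was called, where 0.027% of all tested genes were (Kmt5a, Heatr6, Nckap1l and Tacc3, named after their values were seen). At an unadjusted p below 0.05 there were 4 of the 8, where 13.0% of all tested genes stood there. Csf2ra had the smallest p, with a log2 fold change of -0.45 ± 0.12 (unadjusted p = 0.00185, adjusted p = 0.178). It was called without CLP+VNS replicate 1, a library with high Csf2ra (-0.55, adjusted p = 0.0295), and its adjusted p ran up to 0.714 over the alternatives. The others were Csf1r at -0.30 ± 0.11 (adjusted p = 0.257), Csf3r at -0.66 ± 0.27 (adjusted p = 0.301) and Il34 at 0.32 ± 0.13 (adjusted p = 0.305). In no gene did the CLP+VNS and the CLP libraries part, as they did in 2.26% of all tested genes. The 95% intervals allowed CLP+VNS levels of Csf3r from 0.427 to 0.937 times those of CLP and levels of Csf2rb from 0.622 to 1.02 times. The neutrophil markers had a median log2 fold change of -0.54 in the same comparison with none of the 8 called, and their part in the Csf3r value was not tested.

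Csf3 was lower in CLP+VNS, at 0.260 ± 0.151 CPM, than in CLP, at 0.946 ± 0.801 CPM, with an unadjusted p of 0.0476 (exact two-sided permutation test). The groups overlapped, since CLP replicate 1 held 3 counts. The ratio of summed counts over summed library totals was 0.276, with a 95% interval of 0.154 to 0.471 that covers counting error only. The p rose above 0.05 on leaving out any of 8 of the 10 libraries (CLP+VNS replicates 1, 3, 5 and 11 and CLP replicates 3, 4, 5 and 6), with exact permutation p-values of 0.0635 to 0.0952. The difference of -0.686 CPM moved furthest without CLP replicate 6, to -0.354 CPM.

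In Sham+VNS against Sham, none of the 8 genes was called, where 0.0% of all tested genes were. Csf1 alone had an unadjusted p below 0.05, with a log2 fold change of -0.33 ± 0.11 (unadjusted p = 0.00713, adjusted p = 0.56), where 8.01% of all tested genes stood there. Csf3r differed by -0.14 ± 0.27, Csf2rb by -0.20 ± 0.18 and Cebpb by -0.15 ± 0.10, each with an interval that includes 0. The interaction asks whether the effect of stimulation differed between the operations, and equally whether the effect of CLP differed with and without stimulation. It called none of the 8 genes and 0.0% of all genes. Csf1r (-0.47 ± 0.15), Csf1 (0.46 ± 0.16), Il34 (0.41 ± 0.19) and Csf2ra (-0.38 ± 0.18) had an unadjusted p below 0.05, where 8.23% of all tested genes did, with adjusted p-values from 0.512 to 0.594. The calls of Csf1 and Csf1r in CLP+VNS against Sham+VNS, and not in CLP against Sham, are therefore not shown to differ. CLP+VNS against CLP, and Sham+VNS against Sham, share their libraries with the comparisons of the operation.

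The transcript table is given as a description without a test. Of 12 Csf3r transcripts, NM_001106685 held 60.0 ± 4.56% of the TPM of the gene in CLP+VNS, 60.6 ± 4.83% in CLP, 63.1 ± 8.19% in Sham+VNS and 55.2 ± 3.50% in Sham libraries. XM_039109621 held 26.1 ± 2.49%, 23.9 ± 2.13%, 22.3 ± 3.40% and 28.5 ± 1.49% in the same groups. A single transcript, XM_039078342, held 93.1% of Csf2rb in CLP+VNS, 93.5% in CLP, 94.8% in Sham+VNS and 91.1% in Sham. For Il34, XM_039097930 held 71.2 ± 4.03% in CLP+VNS, 73.5 ± 4.72% in CLP, 79.3 ± 4.65% in Sham+VNS and 77.1 ± 3.12% in Sham. The Csf1 transcript NM_023981 held 78.2%, 79.1%, 80.3% and 80.4% in those groups. The Csf2ra transcript NM_001037660 held 60.5%, 60.0%, 61.9% and 61.4%, followed by XM_017599372 and XM_039092401. For Csf1r, XM_006254813 held 84.4 ± 5.81% in CLP+VNS, 88.4 ± 6.80% in CLP, 79.1 ± 3.04% in Sham+VNS and 91.5 ± 7.47% in Sham, with ranges that overlapped. In each of these 6 genes the leading transcript by mean share was the same in all 4 groups. The 3 records of Cebpb carried identical values, so they tell nothing of its isoforms.

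Some other genes ran nearly parallel to the called members over the 20 libraries, by the mean absolute difference of log2 CPM after each gene was centred on its own mean. Nearest to Csf2rb were Fcgr2b, the inhibitory Fc receptor of myeloid cells, at 0.138, and Sod2, the mitochondrial superoxide dismutase, at 0.197. Nearest to Csf3r were Mmp25, a membrane protease of neutrophils, at 0.17, and Rab44 at 0.182. Nearest to Csf2ra were Cfp, which is properdin of the complement system, at 0.111, and Atp8b4 at 0.119. Nearest to Cebpb were Litaf, an endosomal protein induced by lipopolysaccharide, at 0.132, and Cfp again at 0.134. Il34, which ran the other way, was nearest to Magi3, a scaffold protein of cell junctions, at 0.133, and the adenylyl cyclase Adcy9 at 0.146. All of these share the 20 libraries and were picked for likeness.

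The genes around these ligands and receptors were read from 8 lists. In the signalling of the receptors, 24 of 34 tested genes rose and 2 fell in CLP against Sham (76.5% called, where 40.3% of all tested genes were), with a median log2 fold change of 0.42 beside -0.013 over all genes. Socs2, a feedback inhibitor of JAK-STAT signalling, reached 120.2 ± 8.85 CPM in CLP and 37.6 ± 4.39 CPM in Sham (log2 fold change 1.68 ± 0.14). Socs3, which shuts down Csf3r, reached 212 ± 19.8 CPM in CLP and 88.9 ± 38.1 CPM in Sham (1.26 ± 0.18). The ubiquitin ligase Cblb (1.25 ± 0.08) and the kinase Pim1 (1.03 ± 0.14) rose too. The 2 that fell were Stat5a (-0.39), a transducer of GM-CSF signals, and the kinase Tyk2 (-0.17), both named after their values were seen, while Jak2 (0.76) rose and Stat5b (-0.05) was not called. Of the 34, 17 rose and 1 fell in CLP+VNS against Sham+VNS (52.9% called, where 27.3% of all tested genes were).

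Of 27 myeloid transcription factors, 14 rose and 2 fell in CLP against Sham (59.3% called, where 40.3% of all tested genes were). Their median was 0.34. Nfil3 reached 32.5 ± 6.62 CPM in CLP and 7.55 ± 1.11 CPM in Sham (log2 fold change 2.11 ± 0.18). Cebpd, a relative of Cebpb, reached 212 ± 21.0 CPM in CLP and 73.1 ± 18.4 CPM in Sham (1.54 ± 0.15). Spi1, which encodes PU.1, rose by 0.68 ± 0.09, while Cebpa (-0.17 ± 0.09) and Irf8 (-0.09) were not called. Irf4 (-0.81 ± 0.24) and Trib2 (-0.81 ± 0.12) fell. With stimulation in both arms, CLP+VNS against Sham+VNS, 10 of the 27 rose and 1 fell (40.7% called, where 27.3% of all tested genes were).

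The neutrophil granule genes that could be tested were called only upward, the direction of the neutrophil markers. Of 16 tested genes of the secondary and tertiary granules, formed late in maturation, 14 rose and none fell in CLP against Sham. That is 87.5% called, where 40.3% of all tested genes were, with a median of 2.03. Lcn2, an iron-withholding lipocalin also made by epithelium, reached 1126 ± 247 CPM in CLP and 80.2 ± 65.5 CPM in Sham (log2 fold change 3.81 ± 0.80). Ngp (5.57 ± 0.84), the cathelicidin Camp (3.53 ± 0.51) and the protease Mmp9 (3.11 ± 0.41) rose, and Arg1 and Adam8 were not called. Of the primary granule genes, formed early, 3 were tested and 2 rose, where 19.8% of all tested genes rose. Ctsc rose by 0.41 ± 0.12 and Elane, named after its values were seen, by 3.24 ± 0.78. Elane averaged 1.14 ± 1.17 CPM in CLP and 0.115 ± 0.150 CPM in Sham, and 0.778 CPM in CLP+VNS and 0.112 CPM in Sham+VNS. It could thus pass the filter on low counts only through libraries of the CLP operation. The 2 of 3 are therefore no measure of this list. The other primary granule genes had too few counts to be tested. Of these, Mpo averaged 0.0866 CPM in CLP and 2.03 CPM in Sham, and 0.101 CPM in CLP+VNS and 0.49 CPM in Sham+VNS. It had 192 counts over all libraries, and the difference of these means was not tested. Prtn3 averaged 0.215 CPM in CLP and 0.154 CPM in Sham, Ctsg 0.0141 and 0.0 CPM, and Bpi 0.0147 and 0.0 CPM. In CLP+VNS against Sham+VNS, 10 of the 16 late granule genes (62.5%) rose, where 13.9% of all tested genes rose. Of the 3 tested primary granule genes 1 rose there, again Elane. Mmp8 and Mmp9 also stand among the neutrophil markers given above.

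Of 22 macrophage genes that depend on Csf1r signalling or mark such cells, 13 rose and none fell in CLP against Sham (59.1% called), with a median of 0.51, although Csf1r itself did not rise. Adgre1, the macrophage marker F4/80, reached 77.2 ± 17.1 CPM in CLP and 13.0 ± 4.06 CPM in Sham (log2 fold change 2.57 ± 0.24). Fcgr2b (1.96 ± 0.19), the lipopolysaccharide co-receptor Cd14 (1.40 ± 0.14) and the mannose receptor Mrc1 (0.99 ± 0.15) rose, while Cx3cr1, Ccr2 and Cd163 were not called. Adgre1, Mrc1, Cx3cr1, Ccr2 and Cd163 also stand among the monocyte and macrophage markers given above. The other markers of that set, Cd68, Mpeg1, C1qa, C1qb and C1qc, were list genes too. Each of these, like Adgre1 and Mrc1, was called higher in CLP against Sham. The list counts and those markers are therefore not independent. Of 15 genes of alveolar macrophages that depend on GM-CSF, 6 rose and 1 fell, or 46.7% called, which is near the 40.3% of all tested genes. Their median was 0.27. The integrin Itgax (1.35 ± 0.19), Mrc1 and the fatty acid binding protein Fabp5 (0.96 ± 0.13) rose, while Pparg (-0.19 ± 0.21), the factor that GM-CSF induces in these cells, was not called. The gene that fell, Cidec (-2.91 ± 0.97), is also an adipocyte gene, and without Sham replicate 1 its log2 fold change was -0.39 with an adjusted p of 0.634. Of the 22 and the 15, 9 (40.9%) and 3 (20.0%) rose in CLP+VNS against Sham+VNS and none fell, where 27.3% of all tested genes were called.

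Of 21 genes that induce CSF messages or set their stability, 14 rose and 1 fell in CLP against Sham. That is 71.4% called, where 40.3% of all tested genes were, with a median of 0.46. Tnf, a cytokine that induces Csf2 and Csf3, reached 12.5 ± 1.16 CPM in CLP and 1.87 ± 0.175 CPM in Sham (log2 fold change 2.73 ± 0.25). Il1a (2.19 ± 0.21) rose, and so did Nfkbiz (1.19 ± 0.10) and Zc3h12a (1.59 ± 0.10), an RNase that degrades inflammatory messages. The epithelial alarmin Il33 fell (-0.80), which was named after its value was seen. For CLP+VNS against Sham+VNS the counts were 10 higher and 1 lower (52.4% called, where 27.3% of all tested genes were).

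Of 9 tested genes of other haematopoietic growth factors and receptors, 4 fell, 1 rose and 4 were not called in CLP against Sham. That is 55.6% called, where 40.3% of all tested genes were, with a median of -0.65. The gene that rose was the receptor Il7r (0.43 ± 0.12), named after its value was seen. Kitlg, the stem cell factor, stood at 213 ± 22.2 CPM in CLP and 422 ± 51.9 CPM in Sham (log2 fold change -0.99 ± 0.11). Il7, the lymphocyte growth factor, changed by -0.75 ± 0.23, Flt3lg, a growth factor of dendritic cells, by -0.70 ± 0.14, and Kit, the receptor of Kitlg, by -0.56 ± 0.16. All 5 markers of T cells, which Il7 sustains, also fell in CLP against Sham, where 20.5% of all tested genes fell. Their median was -1.41, and their part in the growth factor values was not tested. In CLP+VNS against Sham+VNS none rose and 2 fell, Kitlg and Il7, and the median was -0.034. That is 22.2% called, below the 27.3% of all tested genes. No gene of the 8 lists was called in CLP+VNS against CLP, in Sham+VNS against Sham or in the interaction.

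**Figure D5:**
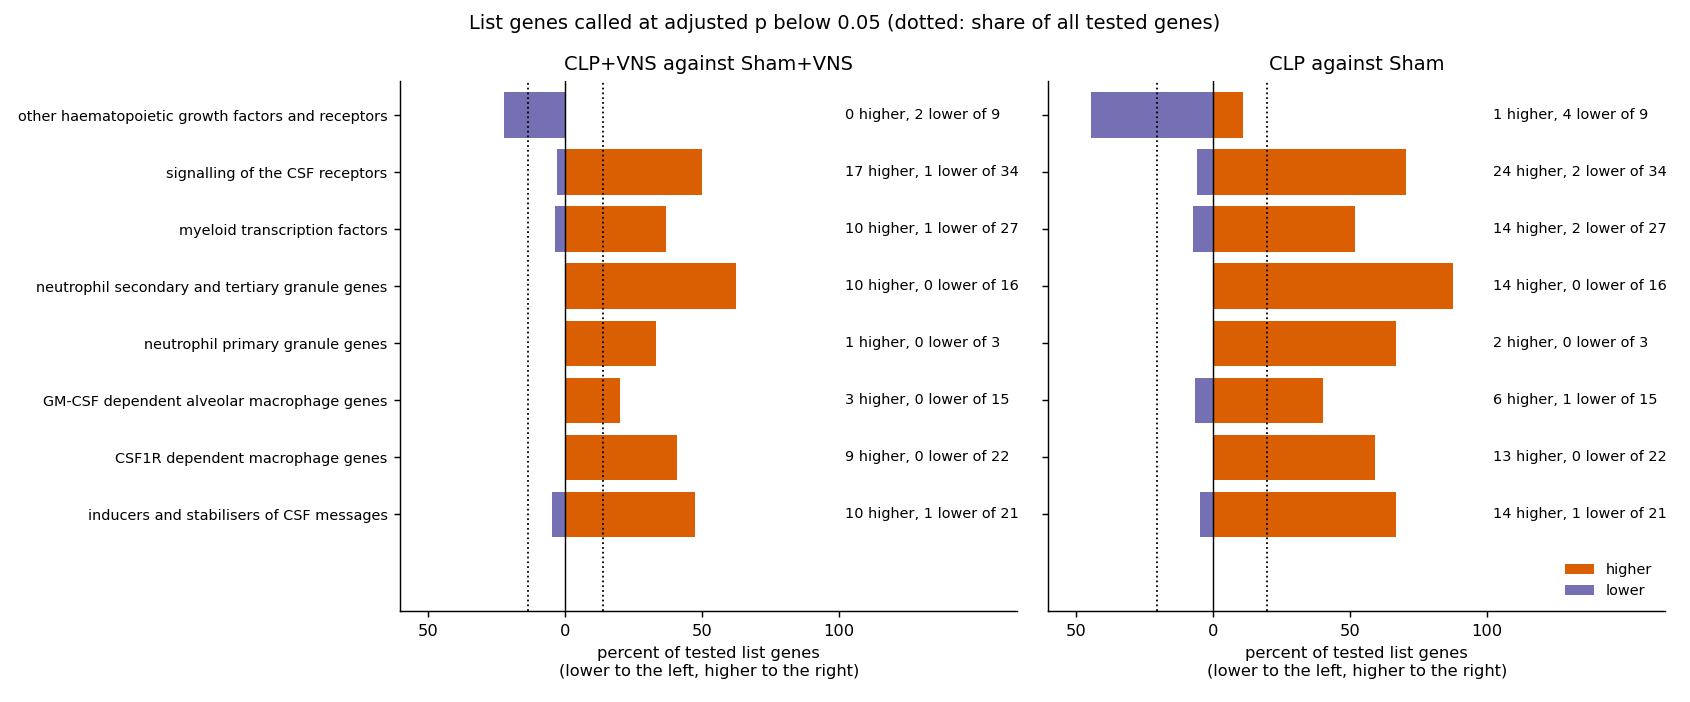
Percent of the tested genes of each list that were called higher (to the right) or lower (to the left) in CLP+VNS against Sham+VNS and in CLP against Sham, with the share of all tested genes in each direction as dotted lines. In CLP against Sham the bar of late granule genes reaches 14 of 16 genes, and the list of other growth factors is the only one with more genes lower than higher.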

How the data were processed

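RNA was poly(A) selected and made into strand-specific libraries, per the labels' protocols. The values rest on the rat assembly mRatBN 7.2, per the submitters' processing notes, and no aligner or counter is named (not given in the sources used here). The authors deposited estimated counts, TPM, FPKM and a normalised read count signal per gene and transcript, per the file headers. The deposited counts were whole for 91.5% of values and were rounded. The deposited TPM served for levels between genes and the deposited FPKM as an alternative for ratios, and the deposited normalised signal was not used.

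Counts were filtered with filterByExpr (minimum count 10), scaled with TMM and fitted with edgeR 4.0.16 (R 4.3.3) as 4 group means over the 20 libraries with 16 residual degrees of freedom. Adjusted p-values are Benjamini-Hochberg over 14794 genes, the standard error is the log2 fold change over the root of F, and the script was tested on simulated data. Csf3 and Cebpe were tested with exact permutation (scipy 1.17.1). Counting intervals are at 95% and, like floors of 3 counts, cover counting error only. DESeq2 1.42.0 and limma 3.58.1 were alternatives, with other scalings, filters, a replicate block and the leaving out of each library.

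The genes and lists were chosen with earlier results of these data known. From each list the text names up to 4 called genes with at least 1 CPM and the largest change in CLP against Sham. Other list genes (Jak2, Stat5a, Stat5b, Tyk2, Spi1, Cebpa, Irf8, Elane, Arg1, Adam8, Cx3cr1, Ccr2, Cd163, Pparg, Il33 and Il7r) were named after their values were seen. Of the lists, Thpo, Il5ra, Il6, Epo, Epor, Ltf, Mpo, Prtn3, Ctsg, Bpi and Il17a had too few counts to be tested. Promoters come from RefSeq (GRCr8), matched by gene, and their coordinates were not compared with mRatBN 7.2.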

Additional observations from a re-analysis of the deposited data

Results flagged for a closer look

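In 39 sets of 5 libraries, 1 gene in 1 group each, the highest or lowest library was checked for a gap of more than 0.71 of the range of its set (Dixon's test). Chance gives about 1 in 20, and 4 were found. Csf3 stood at 0.0703 CPM in Sham replicate 4, a single count, and at 0 in the other Sham libraries. Cebpb was lowest in Sham+VNS replicate 2, at 71.1 CPM, with the next library at 88.3 CPM. It was also lowest in Sham replicate 1, at 76.7 CPM, with the next at 97.5 CPM, and that library had the highest adipose markers. Cebpe was highest in CLP replicate 5, at 0.952 CPM, with the next at 0.507 CPM.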

How the results depend on the processing

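The number of the 8 tested genes called was 5 to 6 in CLP against Sham and 7 in CLP+VNS against Sham+VNS when each library was left out in turn. Without a filter on low counts Csf3 was added in both, giving 6 and 8. In CLP+VNS against CLP the number was 0 to 1 over the libraries left out. Over the alternatives for the log2 fold changes of the 8 tested genes, 1084 values kept direction and side of the threshold, 16 reversed, 4 passed the threshold and 2 no longer did. The reversed values were all of genes not called in the comparison, and the cause was not tested: Csf2 in CLP+VNS against Sham+VNS was -0.010 with total count scaling, -0.021 with limma, -0.11 with the replicate block and -0.091 to 0.18 with a library left out. With a library left out, Csf1 in CLP against Sham was -0.11 to 0.048, Csf2 in CLP+VNS against CLP -0.18 to 0.015, Csf3r in Sham+VNS against Sham -0.28 to 0.017 and Cebpb in the interaction -0.093 to 0.050. The difference in mean CPM was -0.870 to -0.354 for Csf3 in CLP+VNS against CLP, where p rose above 0.05 on leaving out any of 8 libraries, 0.117 to 0.282 for Cebpe in CLP against Sham and -0.0713 to 0.0657 for Cebpe in Sham+VNS against Sham.

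The number of all genes called in CLP+VNS against CLP was 4. It was 138 with DESeq2, and 0 with total count scaling, limma, only the 2 groups compared or the replicate block, and 0 to 277 with a library left out, the highest without CLP+VNS replicate 1. In Sham+VNS against Sham it was 0, against 6 with DESeq2, 1 with only the 2 groups and 0 to 2 with a library left out, and in the interaction 0, against 6 with DESeq2 and 0 to 3. Replicate numbers gave no sign of pairing the samples. The correlations of their deviations ran from -0.163 to 0.178 in 22 same-numbered pairs and from -0.264 to 0.233 in 128 other pairs. Such correlations cannot exclude a weak effect shared by samples of the same number. A fit with the replicate number as a block, which drops libraries whose number occurs once, called 2110 genes in CLP+VNS against Sham+VNS, against 4044, and 5 of the 8 genes, against 7 without it, with Csf1 at 0.46 (adjusted p = 0.052) and Csf2ra at 0.47 (0.0722). In CLP against Sham the block also ended the calls of the list genes Il7 (-0.74, 0.0601), Ctsc (0.39, 0.0568) and Cidec (-1.64, 0.300). Csf2, Csf3 and Cebpe are limited by their counts.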
